A study of Macaca mulatta with 9 samples.

Results

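Whole blood RNA of rhesus macaques (Macaca mulatta) was examined for 10 genes that switch on, serve or accompany MHC class II antigen presentation. The genes were chosen by name, and all 10 have a row among the 24371 genes of the deposited table: the transcription regulators CIITA, RFX5, RFXANK and RFXAP, the class II partner proteins CD74 and IFI30, and the surface molecules CD80, CD86, CD83 and CD40. The 9 animals, all labelled WT, had been assigned at random to 3 groups of 3. One group received Evs-ABPC, extracellular vesicles of antler blastema progenitor cells per the series title. Another received Evs-FBMSC, vesicles whose cell source the labels give only by that abbreviation, and the last received PBS as vehicle. PBS animals carry the word Old in their descriptions. Labels used here give no age, dose or time of sampling.

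MHC class II molecules carry peptides of engulfed proteins to the surface of B cells, monocytes and dendritic cells, where CD4+ T cells read them. CIITA is the co-activator on which class II transcription depends, and it is held at class II promoters by the RFX complex of RFX5, RFXANK and RFXAP. CD74, the invariant chain, guards the peptide groove until the molecule reaches an acidic compartment, where IFI30 reduces disulfide bonds of the proteins to be cut. CD80 and CD86 deliver the second signal through CD28 on the T cell, CD83 marks activated antigen-presenting cells and helps keep class II and CD86 at the surface, and CD40 receives the signal of the T cell's CD40 ligand.

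Erythroid transcripts filled most of every library, and the remainder differed between groups. The 10 of 11 erythroid marker genes in the table took 71.2% to 82.8% of the per-million values in Evs-ABPC libraries, 82.7% to 87.9% in Evs-FBMSC libraries and 88.5% to 92.9% in PBS libraries. Reads outside HBB, recovered from the steps of the values, numbered 8.45 M to 9.42 M in Evs-ABPC libraries, 7.12 M to 8.81 M in Evs-FBMSC libraries and 5.61 M to 7.9 M in PBS libraries (M, 1000000 reads). Median-ratio size factors, which follow the typical gene that is above 0 in all libraries, ran from 1.52 to 2.52 in Evs-ABPC libraries, from 0.957 to 1.21 in Evs-FBMSC libraries and from 0.330 to 0.767 in PBS libraries. Values are therefore given both as deposited (per-million values, which sum to 1000000 in each library) and after division by these size factors. PBS replicate 3 stood apart within its group, with a size factor of 0.767. It held the highest PBS value as deposited for 9 of the 10 genes (all but IFI30). After scaling it did so for 8 of 10 (all but RFXANK and IFI30). Those of the 10 genes whose sign or call turned without it are named with that value. In whole blood, fewer cells of a type and less RNA per cell cannot be told apart.

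As deposited, all 10 genes rose under Evs-ABPC relative to PBS, and so did most of the blood transcriptome. By limma with Benjamini-Hochberg adjustment over all genes, 10 of 10 were called higher against a background of 90.9% of the 10596 genes tested (0.0566% lower), and 10 of 10 had an unadjusted p under 0.05 against 91.3%. Their log2 fold changes ran from 0.81 to 1.89 with a median of 1.45, where the median of all genes tested was 1.41 and 99% of genes lay above 0. Evs-ABPC libraries were all above PBS libraries for 6 of the 10 (CD74, CIITA, RFX5, RFXANK, IFI30 and CD83), against 85.4% of all genes, and all below for 0 of 10, against 0.0661%. With the erythroid markers taken out and the rest rescaled, 0 of 10 were called and 1 had an unadjusted p under 0.05, where 0% of all genes were called higher and 42.8% had an unadjusted p under 0.05. The log2 fold changes of the 10 then ran from 0.02 for IFI30 to 1.21 for CD80, where all genes had a median of 0.75.

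After median-ratio scaling the 10 genes no longer lay to 1 side of PBS under Evs-ABPC. The median log2 fold change was then -0.02, where all genes had 0.0019, and 5 of 10 lay above 0, against 50.2% of all genes. By limma 0 of 10 were called, with 0 at an unadjusted p under 0.05, where all genes gave 0% called in either direction and 10.2% at that unadjusted p. By limma-voom on scaled recovered reads 0 of 10 were called, against 0.00944% called lower, 0% called higher and 9.1% at an unadjusted p under 0.05. For 0 of 10 did the libraries of Evs-ABPC and PBS separate, against 6.45% of all genes higher and 7.51% lower.

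**Figure D1:**
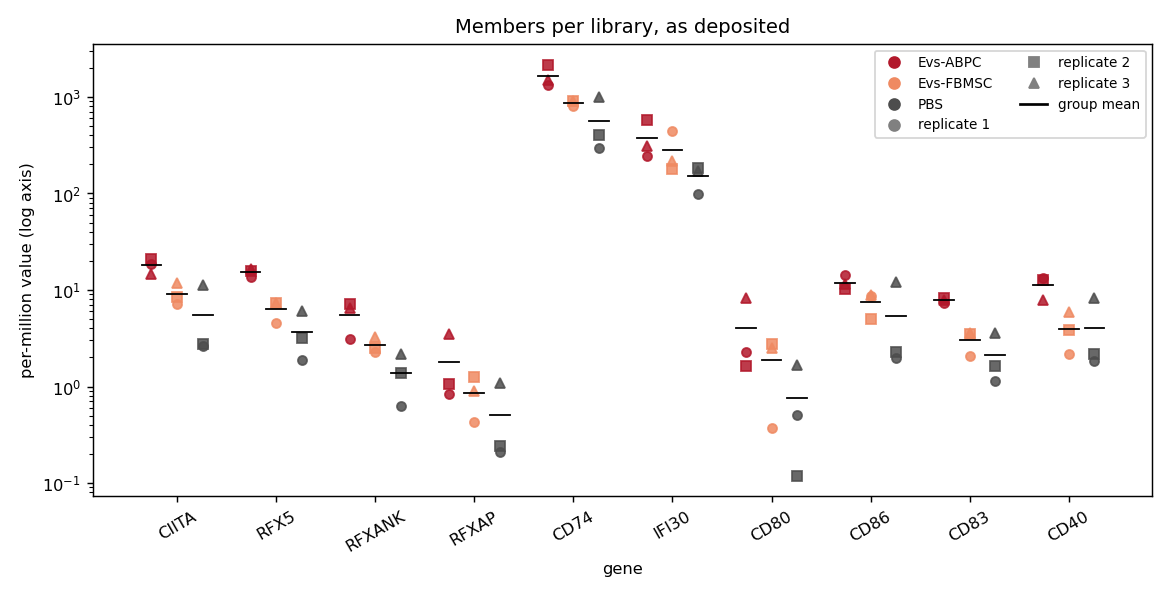
Per-million values as deposited (log axis) of the 10 genes in each library, with Evs-ABPC, Evs-FBMSC and PBS side by side for each gene, symbols for replicates and a line at the group mean. CD74 and IFI30 lie far above the other 8 genes, Evs-ABPC means are the highest for every gene, and CD40 is the gene whose Evs-FBMSC mean (3.94) is below its PBS mean (4.07).

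**Figure D2:**
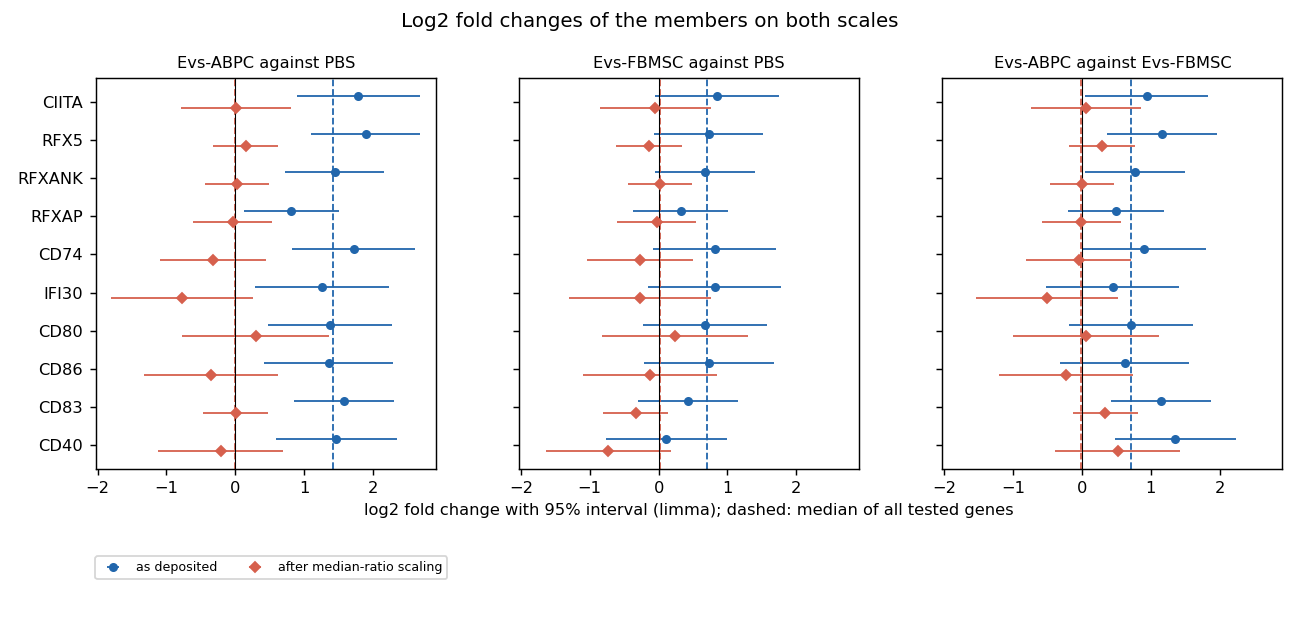
Log2 fold changes with 95% intervals from limma for the 10 genes in the 3 comparisons, as deposited (circles) and after median-ratio scaling (diamonds), with dashed lines at the median of all tested genes on each scale. The intervals as deposited sit around medians of 1.41, 0.70 and 0.71, and every scaled interval includes 0.

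Among the regulators, CIITA, the class II co-activator, read 18.8, 20.9 and 14.8 as per-million values as deposited in Evs-ABPC libraries, 7.11, 8.37 and 11.7 in Evs-FBMSC libraries and 2.65, 2.73 and 11.1 in PBS libraries. All Evs-ABPC libraries were above all others, and PBS replicate 3 lay with the Evs-FBMSC libraries. The log2 fold change of Evs-ABPC against PBS was 1.79 (SE 0.43, limma adjusted p = 0.00086). After scaling the same libraries read 12.3, 9.65 and 5.86 under Evs-ABPC, 7.21, 6.94 and 12.2 under Evs-FBMSC and 8.02, 5.81 and 14.5 under PBS. The 3 groups then overlapped throughout, and the scaled difference from PBS was 0.0099 (95% interval -0.79 to 0.81, limma adjusted p = 0.993). Without PBS replicate 3 that scaled difference was 0.34.

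RFX5, the DNA-binding subunit of the RFX complex, read 13.8, 15.6 and 16.7 as per-million values as deposited in Evs-ABPC libraries, 4.57, 7.31 and 7.28 in Evs-FBMSC libraries and 1.86, 3.19 and 6.03 in PBS libraries. The Evs-ABPC values were close together and clear of both other groups, which overlapped. The log2 fold change of RFX5 was the highest of the 10 as deposited, 1.89 under Evs-ABPC relative to PBS (SE 0.39, limma adjusted p = 0.000426). Scaled values were 9.04, 7.19 and 6.62 under Evs-ABPC, 4.64, 6.06 and 7.6 under Evs-FBMSC and 5.64, 6.79 and 7.86 under PBS. On that scale the groups overlapped, and the difference of Evs-ABPC from PBS was 0.15 (95% interval -0.33 to 0.63, limma adjusted p = 0.837).

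RFXANK, the ankyrin-repeat subunit, read 3.07, 7.1 and 6.45 as per-million values as deposited in Evs-ABPC libraries, 2.3, 2.52 and 3.29 in Evs-FBMSC libraries and 0.624, 1.38 and 2.18 in PBS libraries. Both vesicle groups lay above all PBS libraries. Its deposited log2 fold change of Evs-ABPC against PBS was 1.44 (SE 0.35, limma adjusted p = 0.00089), near the median of all genes. Scaled group means were 2.62 ± 0.630 under Evs-ABPC, 2.62 ± 0.714 under Evs-FBMSC and 2.55 ± 0.577 under PBS (SD, n = 3 each). These differed by far less than the spread within a group, with a scaled difference of Evs-ABPC from PBS of 0.03 (95% interval -0.44 to 0.49).

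RFXAP, the RFX-associated subunit, was the least abundant of the 10 and rested on few recovered reads (counts known only up to a whole multiple per gene): 15, 13 and 47 in Evs-ABPC libraries, 8, 23 and 18 in Evs-FBMSC libraries and 5, 6 and 21 in PBS libraries. It reached a per-million value of 1 in 4 of 9 libraries, 2 of them Evs-ABPC, so it passed the filter on low values narrowly. Per-million values as deposited were 0.834, 1.07 and 3.48 under Evs-ABPC, 0.428, 1.24 and 0.892 under Evs-FBMSC and 0.212, 0.24 and 1.08 under PBS. One library was high in the Evs-ABPC and in the PBS group, and the groups overlapped. Its log2 fold change as deposited was 0.81 for Evs-ABPC against PBS (SE 0.34, limma adjusted p = 0.0259). That call ended without Evs-ABPC replicate 3 (0.41, adjusted p = 0.221), PBS replicate 1 (0.68, adjusted p = 0.106) or PBS replicate 2 (0.70, adjusted p = 0.0769). After scaling the difference was -0.04 (95% interval -0.61 to 0.54), and 0.17 without PBS replicate 3.

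CD74, the invariant chain, was the most abundant of the 10, placed 14 of 24371 by its mean over all libraries. Its per-million values as deposited were 1317, 2168 and 1501 in Evs-ABPC libraries, 800, 905 and 901 in Evs-FBMSC libraries and 297, 408 and 992 in PBS libraries. Evs-ABPC libraries were all above the rest, and PBS replicate 3 exceeded every Evs-FBMSC library. The log2 fold change as deposited was 1.72 for Evs-ABPC against PBS (SE 0.43, limma adjusted p = 0.00114). After scaling, CD74 read 866, 1001 and 596 under Evs-ABPC, 812, 750 and 941 under Evs-FBMSC and 899, 867 and 1294 under PBS. The direction turned on this scale, but the groups overlapped: the difference of Evs-ABPC from PBS was -0.32 (95% interval -1.09 to 0.44, limma adjusted p = 0.781). CD74 had 10222 or more recovered reads in every library, so counting error is small for it beside the spread between animals.

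IFI30, the thiol reductase of the class II compartment, read 242, 576 and 314 as per-million values as deposited in Evs-ABPC libraries, 440, 180 and 218 in Evs-FBMSC libraries and 98.8, 186 and 172 in PBS libraries. The Evs-ABPC libraries all lay above the PBS libraries, and the Evs-FBMSC libraries overlapped both. Its deposited log2 fold change of Evs-ABPC against PBS was 1.26 (SE 0.47, limma adjusted p = 0.0154), a call that ended without Evs-ABPC replicate 2 (0.90, adjusted p = 0.0635) or PBS replicate 1 (0.98, adjusted p = 0.071). Scaled values were 159, 266 and 125 under Evs-ABPC, 447, 149 and 228 under Evs-FBMSC and 299, 395 and 224 under PBS. Here 2 of the Evs-ABPC libraries lay below all PBS libraries and the third among them. The scaled difference, -0.77 (95% interval -1.80 to 0.26, limma adjusted p = 0.624), was the lowest of the 10 in this comparison and did not pass the test. It stayed negative with each library left out in turn, from -1.07 to -0.53.

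**Figure D3:**
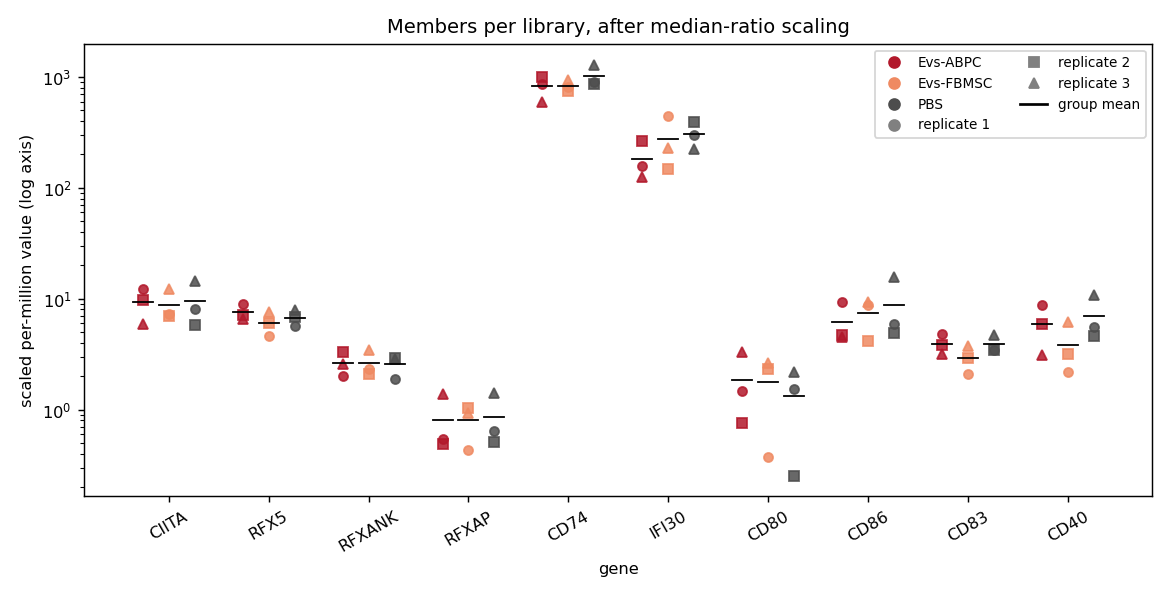
Per-million values after median-ratio scaling (log axis) of the 10 genes in each library, drawn as in the plot of deposited values. For each of the 10 genes the libraries of every pair of groups overlap.

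CD86, a CD28 ligand, read 14.2, 10.2 and 11.5 as per-million values as deposited in Evs-ABPC libraries, 8.73, 5 and 8.95 in Evs-FBMSC libraries and 1.96, 2.3 and 12 in PBS libraries. The highest PBS library, replicate 3, lay among the Evs-ABPC libraries, and the other 2 lay below every library of both vesicle groups. The log2 fold change as deposited was 1.35 for Evs-ABPC against PBS (SE 0.46, limma adjusted p = 0.00813), against 0.97 without PBS replicate 1 (adjusted p = 0.0658, no longer called) and 2.04 without PBS replicate 3. Scaled values were 9.3, 4.71 and 4.56 under Evs-ABPC, 8.86, 4.15 and 9.35 under Evs-FBMSC and 5.93, 4.88 and 15.6 under PBS, and the scaled difference was -0.35 (95% interval -1.33 to 0.63). Without PBS replicate 3 the scaled difference was 0.11.

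CD80, the other ligand of CD28, was measured from 41, 20 and 113 recovered reads in Evs-ABPC libraries, 7, 52 and 51 in Evs-FBMSC libraries and 12, 3 and 33 in PBS libraries. The corresponding per-million values as deposited were 2.26, 1.62 and 8.28 under Evs-ABPC, 0.372, 2.79 and 2.5 under Evs-FBMSC and 0.504, 0.119 and 1.68 under PBS. Each group held 1 library far from the other 2, and all groups overlapped. Its log2 fold change as deposited was 1.38 for Evs-ABPC against PBS (SE 0.44, limma adjusted p = 0.00545), and 0.82 without Evs-ABPC replicate 3 (adjusted p = 0.0463). After scaling the difference was 0.30 (95% interval -0.77 to 1.36), the widest interval of the 10 and the highest scaled value.

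CD83, the activation marker, varied little within the Evs-ABPC group as deposited, though not after scaling (highest over lowest 1.13 and 1.52). It read 7.29, 8.25 and 7.93 as per-million values as deposited in Evs-ABPC libraries, 2.05, 3.53 and 3.56 in Evs-FBMSC libraries and 1.14, 1.63 and 3.61 in PBS libraries. Every Evs-ABPC value was above every other value, and the other groups overlapped. The log2 fold change as deposited was 1.57 for Evs-ABPC against PBS (SE 0.35, limma adjusted p = 0.000553). Scaled values were 4.79, 3.81 and 3.15 under Evs-ABPC, 2.08, 2.92 and 3.71 under Evs-FBMSC and 3.47, 3.46 and 4.71 under PBS. The scaled difference from PBS was 0.0075 (95% interval -0.46 to 0.48), with all 3 groups overlapping.

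CD40, the receptor of CD40 ligand, was the one gene whose Evs-FBMSC mean (3.94 ± 1.86) did not exceed its PBS mean (4.07 ± 3.59) as deposited (SD, n = 3 each). It read 13.3, 12.8 and 7.87 as per-million values in Evs-ABPC libraries, 2.15, 3.81 and 5.87 in Evs-FBMSC libraries and 1.82, 2.18 and 8.22 in PBS libraries. Evs-FBMSC and PBS libraries overlapped, and the lowest Evs-ABPC library was below PBS replicate 3. The log2 fold change as deposited was 1.47 for Evs-ABPC against PBS (SE 0.43, limma adjusted p = 0.00316). After scaling, CD40 read 8.74, 5.89 and 3.13 under Evs-ABPC, 2.18, 3.16 and 6.13 under Evs-FBMSC and 5.51, 4.63 and 10.7 under PBS. The scaled difference of Evs-ABPC from PBS was -0.21 (95% interval -1.12 to 0.70), with the libraries of both groups interleaved, and 0.11 without PBS replicate 3.

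Evs-FBMSC against PBS gave 0 calls among the 10 by limma on either scale. As deposited, 0.255% of all genes were called higher and 0.00944% lower, and 0 of the 10 had an unadjusted p under 0.05, against 43.8%. All 10 log2 fold changes were above 0, against 97.1% of all genes, from 0.11 for CD40 to 0.85 for CIITA, with a median of 0.70 where all genes had 0.70. For CD40 the mean of the log2 values was thus higher under Evs-FBMSC although the mean of the values was not. Only RFXANK had every Evs-FBMSC library above every PBS library, against 50.9% of all genes, and 0 of 10 had them all below, against 0.0849%. Without PBS replicate 3, 43.3% of all genes were called higher as deposited, and so were 5 of the 10: CD74 (1.31, limma adjusted p = 0.0349), CIITA (1.42, 0.0327), RFX5 (1.07, 0.0358), RFXANK (0.91, 0.0495) and CD86 (1.42, 0.0327). After scaling 2 of 10 lay above 0, against 53% of all genes, and 0 had an unadjusted p under 0.05, against 4.83%, with 0% of all genes called. For 0 of 10 did the libraries separate, against 4.96% higher and 4.71% lower. By limma-voom 0 were called, where 0% of all genes were called and 4.22% had an unadjusted p under 0.05. CD40 had the lowest scaled value of the 10, -0.73 (95% interval -1.64 to 0.18, limma adjusted p = 0.998), and was negative with each library left out, from -1.05 to -0.41. Beside it, 8 of 8 B cell markers lay below 0 after scaling, against 47% of all genes, with a median of -0.84. By limma 0 of these were called and 1 (CD79B, -1.05) had an unadjusted p under 0.05. Monocyte markers went the other way, with 6 of 7 above 0 and a median of 0.35. Of the 4 dendritic cell markers tested, 3 lay below 0, with a median of -0.20. The part of any of these cells in the CD40 value was not tested. CD83 had the next lowest scaled value of the 10, -0.33 (95% interval -0.80 to 0.14). Without PBS replicate 3 the scaled differences of CIITA (-0.05), RFXAP (-0.03) and CD86 (-0.12) turned to 0.28, 0.18 and 0.34.

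Evs-ABPC against Evs-FBMSC, the comparison of the vesicle types, also gave 0 calls among the 10 by limma as deposited, where 0.585% of genes were called higher and 0.0566% lower. At an unadjusted p under 0.05 there were 6 of 10 (CD74, CIITA, RFX5, RFXANK, CD83 and CD40), against 48.3% of all genes. All 10 values were above 0, against 95.1% of all genes, with a median of 0.84 where all genes had 0.71. Every Evs-ABPC library was above every Evs-FBMSC library for 6 of 10 (CD74, CIITA, RFX5, CD86, CD83 and CD40), against 50.5% of all genes, and below for 0 of 10, against 0.17%. The largest were CD40 with 1.36 (SE 0.43), RFX5 with 1.17 (SE 0.39) and CD83 with 1.15 (SE 0.35), each with a limma adjusted p of 0.0737. Without Evs-ABPC replicate 1, 45.6% of all genes were called higher as deposited, and so were 4 of the 10: RFX5 (1.24), RFXANK (1.08), CD83 (1.19) and CD40 (1.23). Without PBS replicate 3, 25.6% of all genes were called higher, and so were 4 of the 10, CIITA, RFX5, CD83 and CD40. After scaling 6 of 10 lay above 0, against 47.2% of all genes, and 4 of 10 below, against 52.8%; 0 were called by limma, with 0% of all genes called, and 0 had an unadjusted p under 0.05, against 5.36%. For 0 of 10 did the libraries separate, against 4.23% higher and 6.8% lower. By limma-voom 0 were called, where 0% of all genes were called and 6.06% had an unadjusted p under 0.05. CD40 had 0.52 (95% interval -0.39 to 1.43), CD83 0.34 (95% interval -0.13 to 0.81) and RFX5 0.29 (95% interval -0.18 to 0.77), and IFI30 had the lowest scaled value, -0.51 (95% interval -1.53 to 0.52). The 3 comparisons share groups, so their values are not independent of each other.

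Ratios of 2 of the genes within a library do not depend on the library's total. CD74 stood at 70.2, 104 and 102 times CIITA in Evs-ABPC libraries, 113, 108 and 77.0 times in Evs-FBMSC libraries and 112, 149 and 89.1 times in PBS libraries. The groups overlapped, and the log2 difference of Evs-ABPC from PBS was -0.34 (exact permutation p = 0.4, two-sided, n = 3 each; the smallest possible p is 0.1). The ratio of CD83 to CD86 was 0.515, 0.809 and 0.690 in Evs-ABPC libraries, 0.234, 0.705 and 0.397 in Evs-FBMSC libraries and 0.584, 0.708 and 0.301 in PBS libraries. It differed between Evs-ABPC and Evs-FBMSC by 0.71 on the log2 scale (exact permutation p = 0.3). For CD40 to CD86 the ratio was 0.939, 1.25 and 0.685 in Evs-ABPC libraries, 0.246, 0.762 and 0.656 in Evs-FBMSC libraries and 0.930, 0.948 and 0.685 in PBS libraries. Evs-FBMSC libraries lay lowest on average, 0.76 below PBS on the log2 scale (exact permutation p = 0.2) and 0.90 below Evs-ABPC, with the Evs-ABPC minus Evs-FBMSC difference at an exact permutation p of 0.2. Over the 9 ratio tests the adjusted p ran from 0.643 to 0.7, and no difference passed. The ratio of CD40 to CD86 between Evs-ABPC and PBS, 0.14 on the log2 scale, turned to -0.075 without Evs-ABPC replicate 2 and to -0.012 without PBS replicate 3. CD74 to CIITA between the vesicle groups, -0.11, turned to 0.070 without Evs-ABPC replicate 1, and CD83 to CD86 between Evs-FBMSC and PBS, -0.31, to 0.084 without Evs-FBMSC replicate 1.

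**Figure D4:**
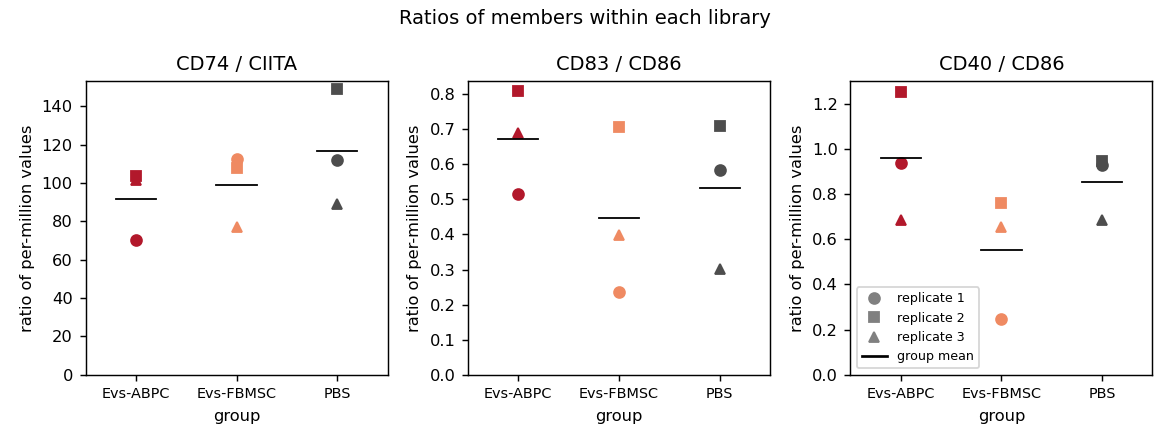
Ratios of per-million values of CD74 to CIITA, CD83 to CD86 and CD40 to CD86 in each library (linear axes from 0), with Evs-ABPC left, Evs-FBMSC in the middle and PBS right, symbols for replicates and a line at the group mean. Libraries of the groups overlap in all 3 panels, and Evs-FBMSC replicate 1 has the lowest CD83 to CD86 (0.234) and CD40 to CD86 (0.246) ratios.

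The class II molecules that these genes serve followed the same division between scales. Of the 11 MAMU-D genes in the table, all 11 passed the filter. As deposited 7 of 11 were called higher under Evs-ABPC relative to PBS by limma, against 90.9% of all genes, and 0 after scaling, where 9 of 11 lay below 0, against 49.8% of all genes, with a median of -0.22 where all genes had 0.0019. MAMU-DRA, the alpha chain of the main class II molecule, read 704 ± 49.9 as a per-million value as deposited under Evs-ABPC and 257 ± 193 under PBS (SD, n = 3 each), a log2 fold change of 1.71 (SE 0.46, limma adjusted p = 0.00185). After scaling it read 454, 351 and 263 under Evs-ABPC, 423, 340 and 445 under Evs-FBMSC and 333, 396 and 620 under PBS, a difference of -0.32 from PBS under Evs-ABPC. The peptide-exchange genes MAMU-DMA (1.90) and MAMU-DMB (1.65), their modulators MAMU-DOA (1.57) and MAMU-DOB (2.02), and the beta chains MAMU-DRB1 (1.78) and MAMU-DRB5 (2.19) were the others called as deposited. The scaled differences of these 6, in the same order, were -0.07, -0.22, -0.06, 0.10, -0.21 and 0.42. PBS replicate 3 had the highest scaled PBS value of MAMU-DRA, MAMU-DMA, MAMU-DMB, MAMU-DOA, MAMU-DOB, MAMU-DQA1 and MAMU-DQB1. It had the lowest of MAMU-DRB5 and MAMU-DPA, and lay between the other PBS libraries for MAMU-DRB1 and MAMU-DPB. Class II differences without this library are not given, so the signs of small ones may rest on it.

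The 4 class II genes not called as deposited were MAMU-DQA1, MAMU-DQB1, MAMU-DPA and MAMU-DPB, chain genes of the DQ and DP molecules. MAMU-DQA1 had the smallest unadjusted p of the class II genes for Evs-ABPC against PBS after scaling, at 10.7, 8.23 and 10.5 under Evs-ABPC, 16.2, 17.3 and 26.2 under Evs-FBMSC and 10.3, 30.8 and 32 under PBS. The lowest PBS library lay within the Evs-ABPC range and the other 2 PBS libraries were well above it. The scaled difference of Evs-ABPC from PBS was -1.09 (SE 0.39, limma unadjusted p = 0.021, adjusted p = 0.366). MAMU-DQB1 ranged from 0.118 to 8 under Evs-ABPC, from 0.845 to 13 under Evs-FBMSC and from 1.1 to 13.1 under PBS after scaling. Its scaled difference of -1.26 had an SE of 1.01. MAMU-DPA differed by -0.81 (SE 0.93) and MAMU-DPB by -1.02 (SE 0.55). MAMU-DPB read 5.02, 6.67 and 11.2 under Evs-ABPC, 5.86, 4.99 and 3.08 under Evs-FBMSC and 5.38, 35.6 and 19 under PBS after scaling. Class II genes are close copies that differ between animals, and how reads were divided among them was not given, so values of single DR, DQ and DP genes are uncertain.

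**Figure D5:**
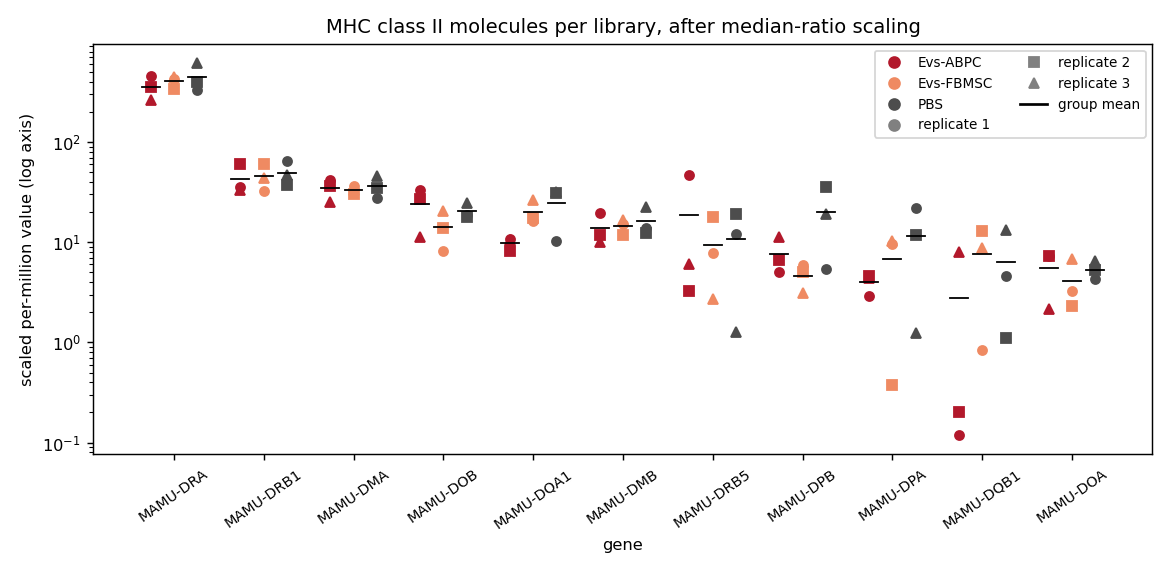
Per-million values after median-ratio scaling (log axis) of the 11 MAMU-D genes in each library, with Evs-ABPC, Evs-FBMSC and PBS side by side for each gene and a line at the group mean. MAMU-DRA is the highest, and MAMU-DRB5, MAMU-DQB1, MAMU-DPA and MAMU-DPB spread widely within groups.

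Around the class II genes, 23 further genes of processing, promoter binding, interferon gamma signalling and costimulation passed the filter. As deposited, 3 of 3 processing genes, 3 of 3 tested promoter partners, 7 of 7 interferon gamma pathway genes and 10 of 10 tested costimulation partners were called higher under Evs-ABPC relative to PBS by limma, against 90.9% of all genes. In the other 2 comparisons 0 of the 34 class II and pathway genes were called as deposited by limma, where 0.255% and 0.585% of all genes were called higher. At an unadjusted p under 0.05 there were 17 of 34 for Evs-FBMSC against PBS, against 43.8% of all genes, and 16 of 34 for Evs-ABPC against Evs-FBMSC, against 48.3%. CTSL, a lysosomal protease, had the smallest p of the processing genes, with a scaled difference of 0.49 (SE 0.18, limma adjusted p = 0.366), and LGMN, an asparaginyl protease, the largest with 0.04. Of the promoter partners, NFYC, a CCAAT-binding subunit, had -0.24 and CREB1, a factor of the X2 box, -0.04. IFNGR2, a chain of the interferon gamma receptor, had -0.69 (SE 0.45). CD40LG, the T cell ligand of CD40, had 0.51 (SE 0.23, limma adjusted p = 0.493), and ICOSLG, the ligand of ICOS, 0.0057. Over the 3 comparisons, 0 of the 34 class II and pathway genes tested were called after scaling. At an unadjusted p under 0.05 there were 2 of 34 in Evs-ABPC against PBS (10.2% of all genes). There was 1 of 34 in Evs-FBMSC against PBS (4.83%), MAMU-DPB with -1.60 (SE 0.55). In Evs-ABPC against Evs-FBMSC there were 6 of 34 (5.36%). These were 3 of 10 costimulation partners, 2 of 7 interferon gamma pathway genes and 1 of 11 class II genes. The scaled medians of these lists were 0.33, -0.60 and -0.08 in that comparison. The ubiquitin ligases of class II, listed for this purpose, were not analysed here.

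Markers of the cells that carry class II were detected in all groups. As deposited, the summed B cell markers (8 of 8 in the table, with none at 0 throughout) ran from 212 to 449 (per-million values) under Evs-ABPC, from 82.1 to 218 under Evs-FBMSC and from 61.0 to 279 under PBS. After scaling they ran from 84.4 to 252 under Evs-ABPC, from 83.3 to 228 under Evs-FBMSC and from 185 to 363 under PBS. The lowest and median PBS sums, 185 and 233, lay within the Evs-ABPC range. Marker differences without PBS replicate 3 are not given. For Evs-ABPC against PBS, 8 of 8 B cell markers had scaled log2 fold changes below 0, against 49.8% of all genes. Their median was -0.58, with 0 called by limma (0 at an unadjusted p under 0.05). They were also all below 0 for Evs-FBMSC against PBS, with the median of -0.84 given above, and all above 0 for Evs-ABPC against Evs-FBMSC, against 47.2% of all genes, with a median of 0.37 and 0 called (0 at an unadjusted p under 0.05). Monocyte markers (7 of 7) summed to 498 to 712 under Evs-ABPC, 269 to 948 under Evs-FBMSC and 147 to 211 under PBS as deposited, and to 252 to 329 under Evs-ABPC, 281 to 962 under Evs-FBMSC and 275 to 446 under PBS after scaling. Dendritic cell markers (8 of 8) summed to 64.7 to 121 under Evs-ABPC, 37.5 to 76.0 under Evs-FBMSC and 18.5 to 94.5 under PBS as deposited. After scaling they summed to 25.7 to 60.2 under Evs-ABPC, 31.1 to 79.4 under Evs-FBMSC and 45.9 to 123 under PBS. Most of each of these ranges was CD1C, with scaled means of 39.6 under Evs-ABPC, 46 under Evs-FBMSC and 67.7 under PBS. One size factor divides all genes of a library, so these sums had to move with the 10 genes between scales. For Evs-ABPC against PBS the scaled median of the monocyte markers was 0.17, with 5 of 7 above 0, against 50.2% of all genes. Of the 4 dendritic cell markers tested, 2 lay above 0, with a median of 0.05. By limma 0 were called in each list. The part of these cells in the values of the 10 was not tested. T cell markers (6 of 6), which mark cells that receive these signals, had a scaled median of 0.59 for Evs-ABPC against PBS, neutrophil markers (5 of 6) -0.58 and platelet markers (3 of 4) -0.06, with 0 called in each by limma and 0 at an unadjusted p under 0.05. Erythroid markers had a scaled median of -2.16, with 0 called and 10 of 10 at an unadjusted p under 0.05.

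Among themselves, the scaled profiles of RFX5 and CD83 over the 9 libraries were the most alike of all pairs of the 10, with a root mean square difference of 0.10 on the log2 scale after centring. IFI30 and CD80 were the least alike, with 1.14. CD74 and CIITA differed by 0.27 on this measure. Over all tested genes with a symbol, the profiles nearest to CD74 were those of SYNGR2 (0.09), BTK (0.12), a kinase of B cell receptor signalling, and POMGNT2 (0.13), where the median gene differed from CD74 by 0.40. Nearest to CIITA were TMED8 (0.16), TAS1R3 (0.17) and TCF4 (0.17), against a median gene of 0.50. CD86 had MAMU-DMB (0.25), ADD3 (0.25) and TNS3 (0.26) nearest, against 0.61. For CD83, TES (0.06), COQ10A (0.09) and ABLIM1 (0.10) were nearest, against 0.38. All these profiles come from the same 9 libraries and share their scaling, and no test was made on them.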

How the data were processed

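The authors deposited 1 table of log2 values for 9 whole-blood RNA libraries, made with a NEBNext Ultra RNA kit per the labels. The build was Mmul_10, per the submitters' processing notes; for aligner and counting program, details were not given in the sources used here. All 9 columns were mapped. The deposited log2 values start at -1 and, with 0.5 taken off after back-transformation, sum to 1000000 in each library. Whole reads were recovered by finding, per gene, a divisor that turns all its values whole: this held within 0.001 read for 21539 of the 21551 genes above 0 in 2 or more libraries, within 0.02 for 11 more, and for 0 of 300 perturbed genes. The divisor differs between genes, as in a per-length unit. A common whole multiple of a gene's reads cannot be told apart, so recovered counts hold up to such a multiple. HBB was not recovered, so depths leave it out. Depth and the spread between 3 animals a group limit precision.

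Fits used limma 3.58.1 (R 4.3.3) with trended variance on log2(value + 1), which understates changes of low genes such as RFXAP and CD80. Genes with a deposited value of at least 1 in 3 or more libraries (10596) entered 1 fit of all 9 libraries with no term but group. Benjamini-Hochberg adjustment ran over all genes tested, with a threshold of 0.05. Scaled values were divided by a median-ratio size factor per library. Within-library ratios were compared by exact two-sided permutation tests. Scaled limma and limma-voom fits of Evs-ABPC against PBS were checked on simulated reads with the same spread setting for all genes. The outcome is not given here, and the check did not cover values as deposited. Alternatives were a pseudocount of 0.5, other filters, erythroid markers taken out, limma-voom on recovered reads, a replicate block and each library left out.

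The 10 genes and all lists were chosen with earlier results of these data known. Also named are all MAMU-D genes, the genes with the smallest and largest scaled p in each other pathway list for Evs-ABPC against PBS, and the 3 nearest profiles of CD74, CIITA, CD86 and CD83. One gene that this rule names is not reported here. All 10 names occur in a RefSeq gene table, whose assembly is not the build of the values, so no coordinates are given.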

Additional observations from a re-analysis of the deposited data

How the results depend on the processing

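With 3 animals a group and few recovered reads for RFXAP and CD80, small scaled differences were not detectable. The deepest library had 9.42 M recovered reads outside HBB, a count that holds up to a whole multiple per gene. After median-ratio scaling, 0 of the 10 genes were called in each comparison by limma under each of the 15 alternatives run. Of all genes, at most 0.0855% were called higher and 1.55% lower, both in Evs-ABPC against PBS without PBS replicate 3. In that fit 0 of the 10 had an unadjusted p under 0.05, against 14% of all genes. As deposited, Evs-ABPC against PBS went to 6 called genes with no filter on low values, to 0 with erythroid markers taken out and to 0 by limma-voom. Without the filter RFXAP, IFI30, CD80 and CD86 were lost (limma adjusted p = 0.119, 0.0566, 0.0833 and 0.0634), with the same log2 fold changes. That fit held 24371 genes, of which 47.9% were called higher. In it 9 of the 10 had an unadjusted p under 0.05, against 54.8% of all genes, so unadjusted p values moved too. The cause was not tested. Leaving out 1 library gave 7 to 10 of the 10, against 82.5% to 92% of all genes. For Evs-FBMSC against PBS, leaving out 1 library gave 0 to 5 called genes, against 0.123% to 43.3% of all genes, and for Evs-ABPC against Evs-FBMSC 0 to 4, against 0.416% to 45.6%.

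Directions as deposited turned under limma-voom, which is median-ratio scaled by construction. For Evs-ABPC against PBS it gave log2 fold changes of -0.28 for CD74, -0.00028 for RFXANK, -0.13 for RFXAP, -0.75 for IFI30, -0.46 for CD86, -0.0033 for CD83 and -0.30 for CD40; those of RFXANK and CD83 also differ in sign from the scaled limma values. For Evs-FBMSC against PBS it gave -0.26 for CD74, -0.037 for CIITA, -0.18 for RFX5, -0.032 for RFXANK (the scaled limma value is also of the other sign), -0.12 for RFXAP, -0.27 for IFI30, -0.23 for CD86, -0.46 for CD83 and -0.94 for CD40. For Evs-ABPC against Evs-FBMSC it gave -0.021 for CD74, -0.014 for RFXAP, -0.49 for IFI30 and -0.23 for CD86. With erythroid markers taken out, CD83 (-0.0093) and CD40 (-0.45) turned in Evs-FBMSC against PBS and IFI30 (-0.14) in Evs-ABPC against Evs-FBMSC. The median of all genes fell too, from 0.70 to 0.43 in the former comparison and from 0.71 to 0.32 in the latter. The cause of the turns in sign was not tested.

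Leaving out 1 library at a time turned the sign of small values. After scaling, Evs-ABPC against PBS ranged from -0.26 to 0.34 for CIITA, -0.12 to 0.15 for RFXANK, -0.24 to 0.17 for RFXAP, -0.10 to 0.59 for CD80, -0.64 to 0.11 for CD86, -0.11 to 0.13 for CD83 and -0.49 to 0.12 for CD40. Evs-FBMSC against PBS ranged from -0.31 to 0.28 for CIITA, -0.29 to 0.010 for RFX5, -0.13 to 0.13 for RFXANK, -0.17 to 0.18 for RFXAP, -0.70 to 0.10 for IFI30, -0.17 to 0.68 for CD80 and -0.41 to 0.34 for CD86, and as deposited from -0.20 to 0.65 for CD40. Evs-ABPC against Evs-FBMSC ranged after scaling from -0.21 to 0.16 for CD74, -0.15 to 0.32 for CIITA, -0.12 to 0.16 for RFXANK, -0.21 to 0.11 for RFXAP and -0.38 to 0.34 for CD80. Log2 ratios ranged from -0.29 to 0.070 for CD74 to CIITA between Evs-ABPC and Evs-FBMSC, from -0.71 to 0.084 for CD83 to CD86 between Evs-FBMSC and PBS and from -0.075 to 0.36 for CD40 to CD86 between Evs-ABPC and PBS.

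Labels tie no replicate number across groups, so the numbers were not taken as pairs. Deviations of the 9 same-numbered pairs of libraries had correlations from -0.25 to 0.28, with 4 above 0.1. This lay within the range of the differently numbered pairs, -0.42 to 0.35. With the replicate number as a block, 4 genes were called as deposited in Evs-ABPC against Evs-FBMSC (RFX5, RFXANK, CD83 and CD40, adjusted p = 0.0377, 0.0485, 0.0374 and 0.038), as were 32% of all genes, and counts of calls in the other comparisons and on the scaled values were the same as without it.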
